A study of Mus musculus with 16 samples.

Results

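A set of 10 genes of the NRF2 response, out of the 45706 genes in the deposited table, was followed in ear biopsies of ageing mice: Nqo1, Hmox1, Gclc, Gclm, Txnrd1, Srxn1, Slc7a11, G6pdx, Osgin1 and Nfe2l2. They were taken by name, and the set was proposed with results of these libraries in view, Nqo1 having already been seen to be higher at the later age. Their age differences are therefore given as a description, with no test. RNA was sequenced from skin of the ear of 8 male mice of the inbred strain C57Bl/6J, which carried no other named allele and received no named treatment. Each mouse was clipped once at 24 months (labelled young, exact ages 23.8 to 24.4 months) and once at 30 months (labelled old, 29.0 to 30.1 months), which gave 16 libraries in 8 pairs within an animal. The later biopsy came from the other ear, so age, ear and time of collection cannot be told apart. All 10 genes had one row each in the table and passed the filter on low counts that 21526 genes passed.

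NRF2, the protein made from Nfe2l2, is a transcription factor that is held in the cytoplasm and sent for degradation by KEAP1 while the cell is unstressed. Oxidants and electrophiles modify KEAP1, and NRF2 then enters the nucleus, pairs with a small MAF protein and binds antioxidant response elements near genes for detoxification, glutathione synthesis and NADPH supply. In skin the pathway is known for its part in the defence of keratinocytes against ultraviolet light and chemicals. Of the genes described here, NQO1 reduces quinones, HMOX1 breaks down haem, GCLC and GCLM form the enzyme that makes the glutathione precursor, SLC7A11 imports cystine for it, TXNRD1 and SRXN1 restore thioredoxin and oxidised peroxiredoxins, G6PDX supplies NADPH, and OSGIN1 is a stress-induced regulator of growth and survival.

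Stretches of promoter sequence are shown for the 3 genes that were higher at 30 months in all 8 mice and for Srxn1, whose level ran closest to that of Nqo1 among the other 9. They are the 250 bases before the RefSeq start of transcription on GRCm38.p6, written 5′ to 3′ on the gene's own strand: Nqo1 at chr8:107403206-107403455 (minus strand), Osgin1 at chr8:119436897-119437146 (plus), Srxn1 at chr2:152105274-152105523 (plus) and Nfe2l2 at chr2:75704664-75704913 (minus). Capitals mark matches, on either strand, to the core of the antioxidant response element (TGACNNNGC) or to the related AP-1 site (TGACTCA).
Nqo1: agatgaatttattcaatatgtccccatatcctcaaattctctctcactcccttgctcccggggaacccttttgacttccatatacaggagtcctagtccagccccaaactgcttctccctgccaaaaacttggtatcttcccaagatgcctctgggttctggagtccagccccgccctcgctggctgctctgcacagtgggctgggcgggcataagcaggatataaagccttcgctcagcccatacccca
Osgin1: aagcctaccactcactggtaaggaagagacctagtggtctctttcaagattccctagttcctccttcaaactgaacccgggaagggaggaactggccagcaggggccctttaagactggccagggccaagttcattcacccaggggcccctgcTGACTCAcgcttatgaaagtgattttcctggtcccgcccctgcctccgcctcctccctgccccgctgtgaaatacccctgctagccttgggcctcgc
Srxn1: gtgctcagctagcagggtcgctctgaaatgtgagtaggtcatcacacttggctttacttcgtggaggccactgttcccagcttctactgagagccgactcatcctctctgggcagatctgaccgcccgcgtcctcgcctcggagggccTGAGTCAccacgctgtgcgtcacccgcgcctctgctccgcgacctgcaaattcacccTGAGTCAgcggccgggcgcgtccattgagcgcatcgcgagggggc
Nfe2l2: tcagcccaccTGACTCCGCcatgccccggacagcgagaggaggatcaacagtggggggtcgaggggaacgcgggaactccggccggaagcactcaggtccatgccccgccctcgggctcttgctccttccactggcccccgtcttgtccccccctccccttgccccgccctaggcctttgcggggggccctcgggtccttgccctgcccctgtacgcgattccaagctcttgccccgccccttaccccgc

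Windows from 250 bases before to 50 bases after a RefSeq start were searched for 8 of the 10 genes, and Hmox1 and Gclc are named only. The response element core stood in a window of G6pdx, Gclm, Nfe2l2, Srxn1 and Txnrd1, 5 of the 8 genes, beside 14% of all genes with a window. The AP-1 letters stood in Osgin1 once and in Srxn1 at 2 places, beside 5.95% of all genes, and the window of Nqo1 held neither motif. No match to one motif overlapped a match to the other in these genes. A match is a description of letters, and its absence says nothing about binding, since response elements can lie farther away.

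Reads assigned to genes numbered 22967222 to 36162431 in a library. The keratins that define epidermis were high, with Krt14 at a mean of 4365 CPM (read counts scaled to a common library size with TMM factors) and Krt10 at 11380 CPM at 24 months, as in skin. Biopsies of different mice also differed in make-up: the summed CPM of 7 skeletal muscle markers ranged over mice from 646 to 8343 at 24 months and from 928 to 6455 at 30 months. Mouse 43 had a within-mouse log2 change of -3.17 in that sum, -1.46 in the sum of 6 fat cell markers, 2.42 in that of 9 hair follicle markers and 1.31 in that of 8 sebaceous gland markers. Other mice shifted too. The muscle sum changed by 3.15 in mouse 13 and 2.78 in mouse 21, and fibroblast and macrophage sums by 1.82 and 1.78 in mouse 50. None of the markers in these lists was at 0 in every library. In bulk tissue, fewer cells of a type and less RNA per cell cannot be told apart.

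Across all 21526 genes, edgeR's quasi-likelihood test, blocked on the mouse, called 0% of the genes at an adjusted p under 0.05, and none of the 10 genes was among them. DESeq2, run as an alternative, called 0.423% of 18208 genes higher and 0.873% lower at 30 months, with 1 of the 10 genes (Nqo1) among the higher ones and none among the lower. An unadjusted edgeR p under 0.05 was found for 4.86% of all genes in the higher direction and for 7.18% in the lower, and for 5 and 0 of the 10 genes. That split depended on single mice: 1047 genes were higher and 1546 lower with all 8, beside 1927 higher and 1845 lower when mouse 43 was left out. Leaving out mouse 13 gave 1237 higher and 1211 lower, and leaving out mouse 21 gave 835 higher and 998 lower. The split was 1708 and 1633 without the block on the mouse. Levels at 30 months were above those at 24 months in at least 7 of 8 mice for 6.49% of all genes and for 4 of the 10. All 30-month libraries lay above all 24-month libraries for 15 genes, or 0.0697%, and for 1 of the 10. Since the set was chosen on this contrast, nothing is read from these counts. The median log2 fold change was 0.17 over the 10 genes and 0.0069 over all genes tested.

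**Figure D1:**
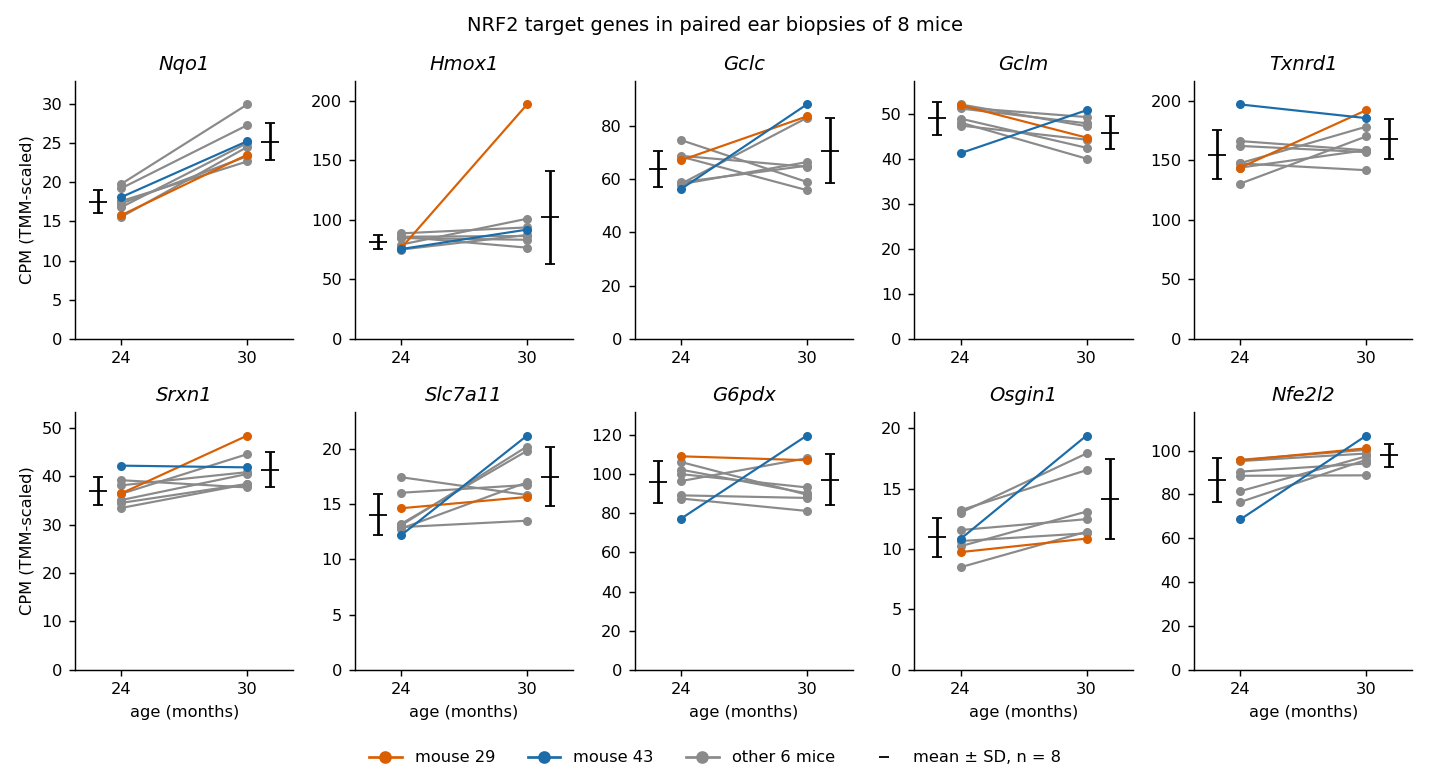
CPM of each gene (y axis, from 0, own scale per panel) at 24 and 30 months (x axis), with one line per mouse and black bars for mean ± SD of 8 mice. All 8 lines slope upward for Nqo1, Osgin1 and Nfe2l2, while the Hmox1 panel is set by mouse 29 (orange), which goes from 76.0 to 197 CPM.

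Nqo1, the gene of NAD(P)H quinone dehydrogenase 1 (ENSMUSG00000003849, chromosome 8, 107388225 to 107403206, minus strand, GRCm38), was higher at 30 months in each of the 8 mice. Its CPM ranged from 15.6 to 19.8 (median 17.4) at 24 months and from 22.7 to 30.0 (median 24.8) at 30 months. The ranges did not overlap: the lowest 30-month library, that of mouse 50, lay above the highest 24-month library, that of mouse 13. Means were 17.5 ± 1.5 and 25.2 ± 2.40 CPM (SD, n = 8), a log2 fold change of 0.52 (SE 0.058) or 1.44-fold. Behind these values lay 437 to 623 reads per library at 24 months and 575 to 1088 at 30 months. The within-mouse log2 change ran from 0.36 in mouse 50 to 0.65 in mouse 21, with an SD of 0.095, the smallest of the 10 genes. Leaving out any 1 mouse moved the estimate between 0.51 and 0.55. In mouse 43, where muscle, fat and hair markers shifted most, the change of Nqo1 was 0.48. It was 0.60 in mouse 13, where the muscle sum moved by 3.15 in the opposite direction. Sums of other cell types shifted too, and the part of tissue make-up in the changes of Nqo1 was not tested.

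Hmox1, the inducible haem oxygenase that opens the haem ring to release iron, biliverdin and carbon monoxide, differed between ages mainly through 1 mouse. Its CPM ranged from 74.8 to 88.4 (median 81.7) at 24 months and from 76.4 to 197 (median 89.3) at 30 months. The single high library was the 30-month biopsy of mouse 29, and the other 7 libraries of that age reached at most 101 CPM. The level was higher in 6 of the mice, and the log2 fold change was 0.26 (SE 0.15). It was 0.11 without mouse 29, in which the change was 1.37. The coefficient of variation over mice was 6.75% at 24 months and 38.2% at 30 months.

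The glutathione genes differed among themselves. Gclc encodes the catalytic subunit of glutamate-cysteine ligase, the rate-limiting enzyme of glutathione synthesis, and Gclm its modifier subunit. Gclc lay at 56.3 to 74.8 CPM (median 63.0) at 24 months and at 55.9 to 88.2 (median 65.8) at 30 months. It was higher in 5 mice and lower in 3, with a log2 fold change of 0.14 (SE 0.11) and within-mouse changes from -0.34 in mouse 21 to 0.65 in mouse 43. Leaving out mouse 43 gave 0.070, leaving out mouse 75 gave 0.089 and leaving out mouse 21 gave 0.21.

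Gclm was the only one of the 10 genes with an estimate below 0. Its CPM ranged from 41.3 to 52.2 (median 50.2) at 24 months and from 40.1 to 50.9 (median 46.1) at 30 months, and it was lower in 7 of 8 mice. The log2 fold change was -0.098 (SE 0.067), and -0.15 without mouse 43, the 1 mouse in which it was higher (0.30). The exons of Gclm share bases with those of Gm17494 on the other strand, which had 166 to 301 reads, and of the pseudogene Gm6061, which had 0 reads in every library, so reads there are uncertain.

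Per length, Gclc exceeded Gclm in every library. The ratio of their RPKM values (read counts divided by exon length and library size) was 2.17 ± 0.20 at 24 months and 2.58 ± 0.42 at 30 months (SD, n = 8). It ranged from 1.86 to 2.42 and from 2.00 to 3.12, and the later value exceeded the earlier one in 6 mice, with a mean log2 change of 0.23 ± 0.35 (SD). The ranges overlapped, and mice 21 and 50 went the other way. At 30 months 5 mice lay at 2.56 to 3.12, above every 24-month value, and 3 lay at 2.00 to 2.25, inside the earlier range.

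**Figure D2:**
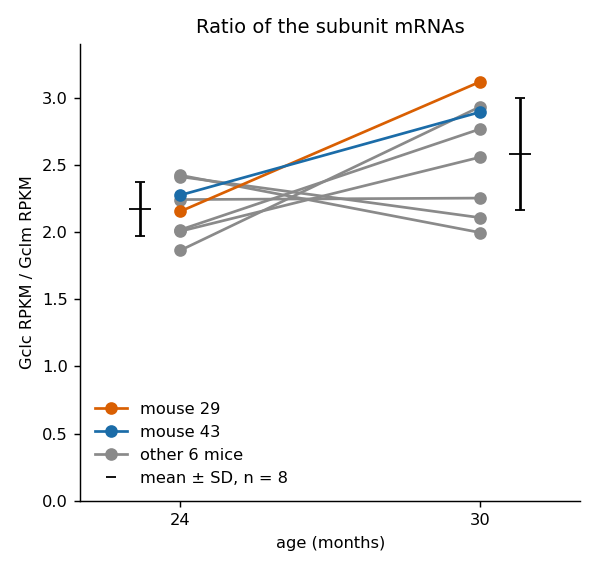
Ratio of Gclc to Gclm RPKM (y axis, from 0) at 24 and 30 months (x axis), one line per mouse, with bars for mean ± SD of 8 mice. The mean is 2.17 at 24 months and 2.58 at 30 months, and the spread over mice is wider at the later age.

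Slc7a11 encodes the transporter subunit that exchanges cystine for glutamate and so feeds glutathione synthesis. It lay at 12.2 to 17.4 CPM (median 13.2) at 24 months and at 13.5 to 21.2 (median 16.9) at 30 months. It was higher in 7 of the mice, its log2 fold change was 0.31 (SE 0.11), and 3 of the 30-month libraries (mice 43, 50 and 75) lay above all those of 24 months. The exception was mouse 21 (-0.14), and the largest change was 0.80 in mouse 43. The estimate ran from 0.25 without mouse 43 to 0.39 without mouse 21.

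Of the genes of the thioredoxin branch, Srxn1 (sulfiredoxin, which reduces overoxidised peroxiredoxins) was higher in 6 of 8 mice and Txnrd1 (cytosolic thioredoxin reductase) in 4. Srxn1 ranged from 33.5 to 42.2 CPM (median 36.4) at 24 months and from 37.7 to 48.4 (median 40.7) at 30 months, a log2 fold change of 0.16 (SE 0.063). The high 24-month library was that of mouse 43, and the high 30-month library that of mouse 29. Txnrd1 ranged from 130 to 197 CPM (median 147) and from 142 to 192 (median 164), a log2 fold change of 0.12 (SE 0.076). Its 30-month range lay inside the 24-month one, and the changes of mice 13, 14, 29 and 75 (0.38, 0.14, 0.42 and 0.27) stood against changes of -0.047 to -0.087 in the 4 mice that were lower.

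G6pdx encodes glucose-6-phosphate dehydrogenase, the first enzyme of the pentose phosphate pathway and a main source of NADPH. Its CPM ranged from 77.2 to 109 (median 98.3) at 24 months and from 81.3 to 120 (median 91.8) at 30 months. It was lower in 6 of 8 mice, and the log2 fold change was 0.013 (SE 0.091), with a change of 0.63 in mouse 43. Without mouse 43 the estimate was -0.068, and without mouse 75 it was -0.0027. This gene has 2 limits: its exons share bases with those of Ikbkg on the other strand (1380 to 2551 reads), and its retrocopy G6pd2 (179 to 471 reads) could share reads with it.

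Osgin1 and Nfe2l2 joined Nqo1 in being higher in all 8 mice, but their ranges overlapped between ages. Osgin1 lay at 8.49 to 13.2 CPM (median 10.8) at 24 months and at 10.9 to 19.4 (median 12.8) at 30 months, a log2 fold change of 0.35 (SE 0.094). The smallest change was 0.084 in mouse 21 and the largest 0.83 in mouse 43, and without mouse 43 the estimate was 0.28. Nfe2l2, the gene of NRF2 itself, lay at 68.6 to 95.8 CPM (median 89.4) and at 88.7 to 107 (median 98.0), a log2 fold change of 0.18 (SE 0.075). In 5 of the 8 mice its change was under 0.1, down to 0.0035 in mouse 21. Mouse 43 (0.64), whose 24-month library was the lowest of all, and mice 64 and 50 (0.32 and 0.26) were the highest, and without mouse 43 the estimate was 0.13. The spread over mice was 11.6% of the mean at 24 months and 5.46% at 30 months.

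**Figure D3:**
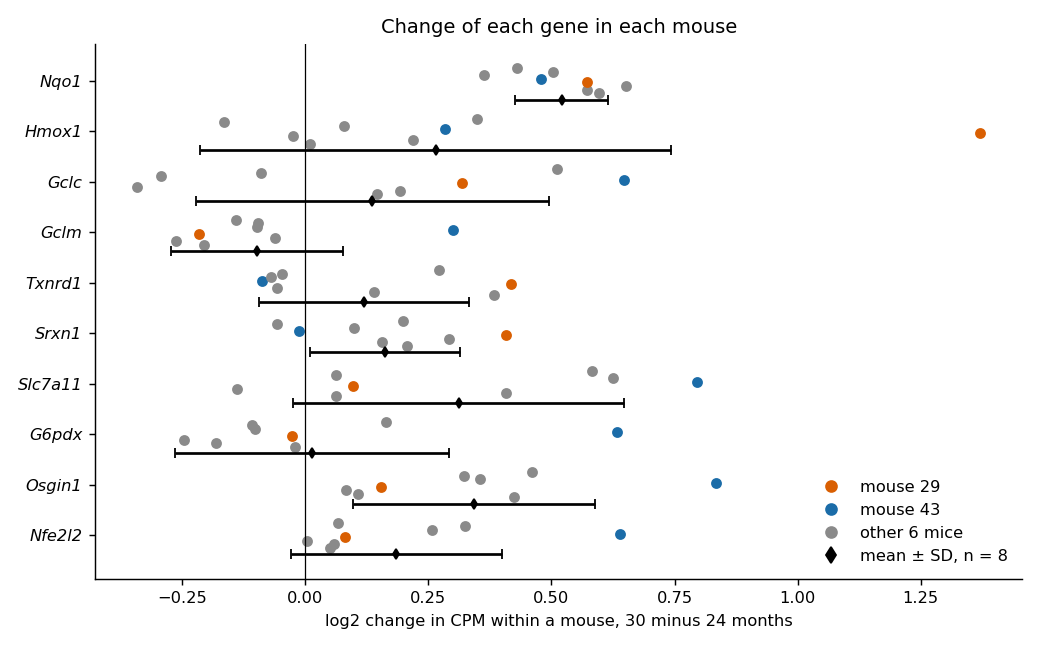
Within-mouse log2 change in CPM, 30 minus 24 months (x axis), for each gene (y axis), with one point per mouse and a diamond with bar for mean ± SD of 8 mice. The 8 points of Nqo1 lie between 0.36 and 0.65, whereas mouse 43 (blue) is the highest point in 6 genes and mouse 29 (orange) in 3.

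Read by animal instead of by gene, the number of the 10 genes that were higher at 30 months was 8 in mice 13, 14, 29 and 43, 9 in mouse 75, 6 in mouse 50 and 4 in mice 21 and 64. Mouse 43 held the largest change for Gclc, Gclm, Slc7a11, G6pdx, Osgin1 and Nfe2l2, and its median over the 10 genes was 0.56. The other mice had medians from -0.052 (mouse 64) to 0.31 (mouse 75). Mouse 29 held the largest change for Hmox1, Txnrd1 and Srxn1, while the change of its Nfe2l2 was 0.081. Mouse 21 held the largest change of Nqo1 and the smallest of Gclc, Slc7a11, G6pdx, Osgin1 and Nfe2l2. The tissue make-up of mouse 43 also shifted, as did that of other mice, and the part of such shifts in these values was not tested. Without mouse 43 the median over the 10 genes was 0.17, as with it, and 8 of the 10 estimates were above 0 in place of 9.

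Compared per length, the 10 genes covered a wide range that was nearly the same at both ages. The order of mean RPKM at 24 months was Hmox1 (46.5 ± 3.77, SD, n = 8), G6pdx (31.3 ± 3.77), Nfe2l2 (22.9 ± 2.99), Txnrd1 (21.9 ± 2.39), Gclc (17.02 ± 1.95), Srxn1 (13.1 ± 0.80), Nqo1 (11.3 ± 1.05), Gclm (7.84 ± 0.70), Osgin1 (4.11 ± 0.59) and Slc7a11 (1.01 ± 0.14). At 30 months Nqo1 (16.2 ± 1.61) stood above Srxn1 (14.6 ± 1.26), and the other places were the same. Among neighbours at 24 months, Hmox1 lay clear of G6pdx, Nqo1 of Gclm, Gclm of Osgin1 and Osgin1 of Slc7a11, with no overlap of ranges. The other 5 neighbouring pairs overlapped: Nfe2l2 exceeded Txnrd1 in 5 of 8 libraries, Gclc exceeded Srxn1 and Srxn1 exceeded Nqo1 in 7, and G6pdx exceeded Nfe2l2 and Txnrd1 exceeded Gclc in all 8. Divided by the longest transcript instead of all exons, Txnrd1 moved from 4th to 2nd place (42.8 RPKM).

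**Figure D4:**
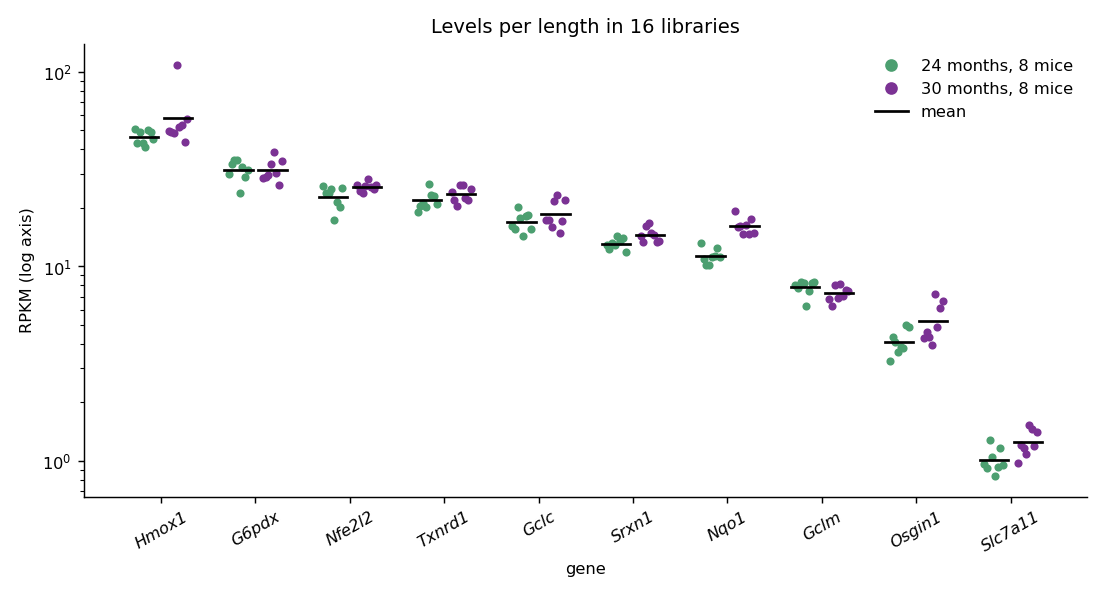
RPKM (y axis, log scale) of the 10 genes (x axis, ordered by mean at 24 months) in 8 libraries at 24 months (green) and 8 at 30 months (purple), with black lines for means. Means run from 46.5 for Hmox1 to 1.01 for Slc7a11 at 24 months, and Nqo1 is the gene whose clouds are separate between ages.

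The rest of the pathway was examined through 8 lists of 140 other genes, of which 137 were tested. By edgeR, 0 passed an adjusted p under 0.05, while 15 were higher and 6 lower at an unadjusted p under 0.05. Over all genes those shares were 4.86% and 7.18%. With 1 mouse left out, the higher genes numbered 13 (without mouse 75) to 24 (without mouse 43) and the lower ones 1 (without mouse 13) to 8 (without mouse 64), with 3 lower without mouse 21 or mouse 75 and 4 without mouse 29. DESeq2 called 3 higher and 1 lower. The median log2 fold change was 0.055, beside 0.0069 over all genes. Estimates were above 0 for 90 of the 137, beside 11122 of the 21526 over all genes. Since the lists were chosen with earlier results of these data known, nothing is read from these comparisons.

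Among the regulators and partners of NRF2, 0 of 14 passed the adjusted edgeR test in either direction, 0 had an unadjusted p under 0.05 and DESeq2 called 0. Keap1, the sensor that marks NRF2 for degradation, had a log2 fold change of 0.11 (SE 0.070, adjusted p = 0.536, edgeR), and 0.072 without mouse 13. Bach1, a repressor of Hmox1 and other NRF2 targets, was at 0.031 (SE 0.093, adjusted p = 0.911, edgeR), and its estimate ran from -0.040 without mouse 29 to 0.091 without mouse 21. The small MAF genes, whose proteins pair with NRF2, stood at -0.041 for Mafg, 0.22 for Mafk and 0.37 for Maff, with edgeR adjusted p-values of 0.736, 0.493 and 0.417. Without mouse 29, in which Mafk had a change of 1.04, Mafk was at 0.10 and Maff at 0.20, and leaving out mouse 43, 21 or 75 brought Mafg to between -0.021 and -0.026. Maff was higher in 8 of 8 mice, by 1.67 in mouse 29 and by 0.0121 to 0.52 in the other 7. Sqstm1, whose product p62 draws KEAP1 into autophagy, had a log2 fold change of 0.18 (SE 0.087, adjusted p = 0.434, edgeR), and 0.11 without mouse 29.

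Of 19 genes of glutathione synthesis and use, 0 passed the adjusted edgeR test and DESeq2 called 0, while 4 were higher and 1 lower at an unadjusted p under 0.05. Gsr, which regenerates reduced glutathione, stood at 36.1 ± 2.06 CPM at 24 months and 41.8 ± 3.38 at 30 months (SD, n = 8) and was higher in 8 of 8 mice. Its log2 fold change was 0.21 (adjusted p = 0.273, edgeR). Gpx4, the peroxidase of membrane lipids, had 0.24 (adjusted p = 0.312, edgeR) and was higher in 7. Gpx3, a secreted peroxidase, had 1.003 (adjusted p = 0.328, edgeR), with a change of 3.29 in mouse 29 and of -0.76 in mouse 43.

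Among 24 glutathione transferases, which couple glutathione to electrophiles, 0 passed the adjusted edgeR test and DESeq2 called 0, with 2 higher and 1 lower at an unadjusted p under 0.05. Mgst2 had a log2 fold change of 0.26, Gsta3 of 0.47 and Gsta2 of -0.49, with edgeR adjusted p-values of 0.304, 0.373 and 0.415. Gsta2, the lower gene, had a change of -2.17 in mouse 29 and an estimate of -0.27 without that mouse. The 15 genes of the thioredoxin and peroxiredoxin system gave 0 by both tools and 1 lower gene, Prdx2, at an unadjusted p under 0.05 (log2 fold change -0.18, adjusted p = 0.395, edgeR). Txn1, thioredoxin itself, was at 0.13 and its inhibitor Txnip at 0.43, and Txnip was at 4037 CPM in the 30-month library of mouse 29 and at 404 to 661 CPM in the other 15. Without mouse 29 Txnip was at 0.13, and without mouse 13 Txn1 was at 0.21. The 14 NADPH and pentose phosphate enzymes likewise gave 0 by both tools and 1 lower gene at an unadjusted p under 0.05, Rpe (-0.18, adjusted p = 0.384, edgeR). H6pd, the enzyme of the endoplasmic reticulum related to G6PDX, had 0.19 and Nadk2, a mitochondrial NAD kinase, 0.11, with edgeR adjusted p-values of 0.622 and 0.545. H6pd was lower in 4 mice, and its estimate was 0.065 without mouse 29 and 0.11 without mouse 50.

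The list of other NRF2-regulated detoxification genes held 3 of the 4 genes that DESeq2 called. In it 24 of 27 genes were tested, 0 passed the adjusted edgeR test, and 5 were higher and 0 lower at an unadjusted p under 0.05. Aldh3a1, an aldehyde dehydrogenase abundant in surface epithelia, stood at 135 ± 24.7 CPM at 24 months and 205 ± 59.2 at 30 months (SD, n = 8) and was higher in 8 of 8 mice. Its log2 fold change was 0.57 (SE 0.14, adjusted p = 0.232 by edgeR and 0.0113 by DESeq2). Abcc3, an export pump for conjugates, had 0.46 (adjusted p = 0.254 by edgeR and 0.042 by DESeq2) and was higher in 7. Ugt1a7c, a glucuronosyltransferase, had 0.90 (adjusted p = 0.279 by edgeR and 0.0425 by DESeq2), was higher in 7 and lay at a mean of 3.51 CPM at 24 months. Over the 12 other edgeR fits the adjusted p ran from 0.128 to 0.513 for Aldh3a1, from 0.106 to 0.517 for Abcc3 and from 0.124 to 0.544 for Ugt1a7c. Ugt1a genes share exons, so how their reads were divided is uncertain.

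Haem and iron genes, which connect to the products of HMOX1, gave 0 of 14 by the adjusted edgeR test, with 1 higher and 1 lower at an unadjusted p under 0.05. Slc40a1, the iron exporter ferroportin and an NRF2 target, was lower in 8 of 8 mice, from 91.1 ± 4.93 to 71.1 ± 11.8 CPM (SD, n = 8), a log2 fold change of -0.37 (SE 0.090, adjusted p = 0.222 by edgeR and 0.0288 by DESeq2, and 0.106 to 0.513 over the 12 other edgeR fits). Cp, the ferroxidase ceruloplasmin, had 0.55 and Steap3, an iron reductase, -0.28, with edgeR adjusted p-values of 0.350 and 0.423. Of 13 other antioxidant genes, enzymes and the metallothioneins Mt1 and Mt2 among them, 0 passed the adjusted test of either tool. At an unadjusted p under 0.05, 3 were higher (Sod1, Mt1 and Mt2) and 1 lower. Sod1, the cytosolic superoxide dismutase, had 0.23, the metallothionein Mt2 0.29 and the paraoxonase Pon3 -0.33, with edgeR adjusted p-values of 0.309, 0.316 and 0.341.

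**Figure D5:**
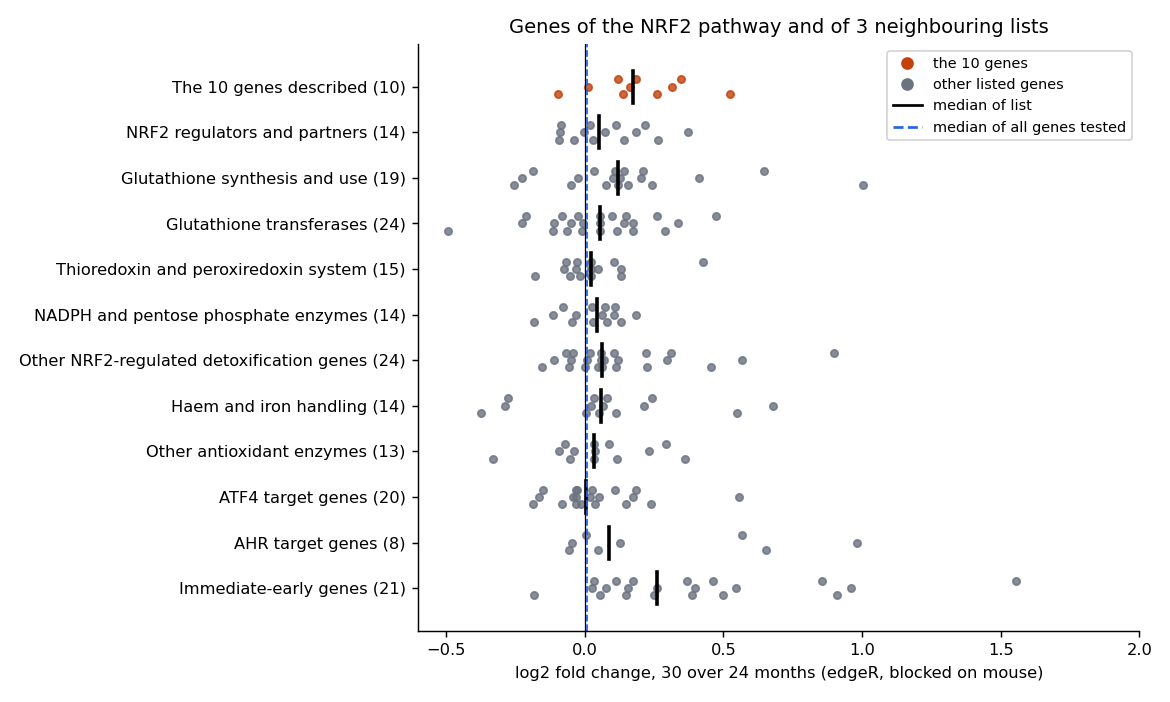
Log2 fold change, 30 over 24 months (x axis, edgeR with a term for each mouse), of every tested gene (points) in 12 lists (y axis, number tested in brackets), with a black bar for each list's median and a dashed line for that of all genes. The 10 genes (orange) have a median of 0.17, the other 8 NRF2 pathway lists together one of 0.055 and the immediate-early genes one of 0.26.

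Genes that answer to other stress and xenobiotic sensors were set beside them, since the aryl hydrocarbon receptor is also known to induce Nqo1. Of 8 tested genes on the list of the aryl hydrocarbon receptor, 0 passed the adjusted edgeR test. At an unadjusted p under 0.05, 3 were higher and 0 lower, and DESeq2 called 2 higher, Cyp1b1 and Aldh3a1. Beside targets the list holds Ahr, the receptor itself, and its partner Arnt, with log2 fold changes of 0.0042 and -0.046. Aldh3a1 and Ugt1a6a are also on the list of detoxification genes above. The median log2 fold change of the 8 genes was 0.088, with 6 of 8 estimates above 0. Cyp1b1, a cytochrome P450 induced through that receptor, stood at 32.1 ± 10.4 and 63.3 ± 18.9 CPM (SD, n = 8) and was higher in 8 of 8 mice. Its log2 fold change was 0.98 (SE 0.19, adjusted p = 0.160 by edgeR and 1.09e-04 by DESeq2, and 0.0803 to 0.439 over the 12 other edgeR fits). Cyp1a1 had 0.65 (adjusted p = 0.401, edgeR), was higher in 6 and was at 0.41 without mouse 43, in which its change was 2.62. The 20 tested genes of the ATF4 list, Atf4 itself and targets that include amino acid transporters and enzymes, had a median of 0.0027. In that list 0 passed the adjusted test of either tool, with 3 higher and 1 lower at an unadjusted p under 0.05. Slc7a11, a target that ATF4 shares with NRF2, was not counted in it, while Sesn2 and Chac1 also stood in the NRF2 pathway lists. Atf4 had 0.17, Cth 0.56 and Cebpb 0.24, with edgeR adjusted p-values of 0.333, 0.338 and 0.289. Of 21 immediate-early genes, which cells induce within minutes of a stimulus, 11 were higher at an unadjusted p under 0.05. The share over all genes was 4.86%. In this list 0 passed the adjusted edgeR test, and DESeq2 called 7 higher, beside 0.423% of all genes. The median of the list was 0.26, beside 0.17 for the 10 genes. Estimates were above 0 for 20 of the 21, beside 11122 of the 21526 over all genes. The lists of this paragraph were also chosen with earlier results of these data known, so nothing is read from these counts. Dusp1, Junb and Ier3 had log2 fold changes of 0.91, 0.50 and 0.46, each higher in 8 of 8 mice, with an edgeR adjusted p of 0.141 for each.

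The level of Nqo1 was compared with that of every other gene. Over 17785 genes with a mean of at least 1 CPM, the highest Pearson correlations of log2 CPM with Nqo1 across the 16 libraries were those of Dpep3 (0.87), Prkag1 (0.87), Sox15 (0.87), Smim20 (0.87), Pemt (0.86), Tmem259 (0.84), Slc25a28 (0.83) and Slc35b1 (0.82). In all 8 mice each of these genes had its higher level at the later age, and the 16 points share the 2 ages. Dpep3, for example, stood at 2.84 ± 0.52 and 4.69 ± 0.98 CPM and Sox15 at 6.08 ± 1.15 and 10.8 ± 1.70 CPM (SD, n = 8). Over the 8 within-mouse changes the correlations of the 8 genes with Nqo1 ran from 0.23 for Slc35b1 to 0.81 for Sox15, and none of the 8 was among the 8 most like Nqo1 over those changes or within either age. Among the NRF2 genes the values across 16 libraries were 0.52 for Srxn1 (rank 983), 0.49 for Osgin1 and 0.46 for Nfe2l2, then 0.41 for Slc7a11, 0.34 for Txnrd1, 0.28 for Hmox1, 0.21 for Gclc, -0.21 for G6pdx and -0.46 for Gclm. Over within-mouse changes they were 0.50 for Srxn1, above 5 of the 8 genes, 0.29 for Txnrd1 and 0.082 for Hmox1. The others were all negative: Gclc (-0.14), Gclm (-0.265), G6pdx (-0.37), Nfe2l2 (-0.48), Osgin1 (-0.51) and Slc7a11 (-0.78). Mouse 21, with the largest change of Nqo1, had the smallest change of Osgin1, Nfe2l2 and Slc7a11.

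Of 17 lists of cell type markers, none had a gene past the adjusted edgeR test, and some are given in detail beside these values. Estimates also ran mostly one way in other lists. They were above 0 for 7 of 7 skeletal muscle, 5 of 5 tested red blood cell and 5 of 6 fat cell markers. For fibroblast, basal keratinocyte and hair follicle markers, 1 of 7, 1 of 7 and 1 of 8 tested were above 0. All 6 endothelial markers had estimates above 0, 4 of them with an unadjusted p under 0.05 and 1 called by DESeq2, and their summed CPM ranged from 105 to 141 at 24 months and from 113 to 297 at 30 months, higher in 6 of 8 mice. All 6 melanocyte markers had estimates below 0, 1 of them with an unadjusted p under 0.05, with summed CPM of 101 to 180 and 69.2 to 121, lower in 7 of 8 mice. The 6 tested cartilage markers also had estimates below 0, 4 of them with an unadjusted p under 0.05 and 1 called by DESeq2, Col2a1 (log2 fold change -0.64, adjusted p = 0.141, edgeR), and the sum of the list went from 107 to 198 CPM to 85.9 to 141 CPM. The 9 markers of differentiated keratinocytes summed to 19210 to 24850 and 17380 to 25270 CPM, lower in 7 of 8 mice. That sum is weighted to Krt10 (mean 11380 CPM at 24 months, log2 fold change -0.36), and 4 of the 8 tested markers had estimates above 0. DESeq2 called Krt1 higher and Dsg1a lower. Col2a1, Krt10, Krt1 and Dsg1a were picked out after their values were seen. Macrophage markers, from cells that express Hmox1, had 0 of 11 genes with an unadjusted p under 0.05, while 10 of 11 estimates were above 0. Their summed CPM was 667 to 1166 and 567 to 2293, higher in 6 of 8 mice. The log2 change of that sum was 0.27 in mouse 29, which had the largest change of Hmox1 (1.37). It was largest in mouse 50 (1.78), where Hmox1 changed by 0.079. The part of tissue make-up in the differences of the 10 genes was not tested.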

How the data were processed

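RNA of 3 mm ear punches was sequenced by the authors with an unstranded kit (TruSeq v2). The submitters' processing notes name CASAVA 1.8.4, TopHat2 2.1.0, HTSeq 0.6.1p1 and mm10. The values they deposited are raw counts per gene, not normalized. A strand setting is not given in the sources used here, so overlapping genes are uncertain. The 5 summary lines (18.7% to 21.1% of reads) were left out. Symbols, positions and exon lengths came from GENCODE M21, and promoter windows from RefSeq.

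Counts were tested with edgeR 4.0.16 (TMM, filterByExpr, quasi-likelihood test, Benjamini-Hochberg adjustment) with a term for each mouse, since both libraries of a pair come from the same animal. The deviations of same-mouse libraries had a median correlation of -0.026, and those of different mice one of -0.017. Log2 CPM used a pseudocount of 0.1. The test was also run on simulated counts built without differences between mice, so nothing is drawn from that run for these data. Alternatives were DESeq2 size factors, the Wald test of DESeq2 1.42.0, no filter, no block, continuous age, no TMM factors, the longest transcript as length, and each mouse left out.

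The members and lists were chosen with earlier results of these data known. Named were all 10 members, Keap1, Bach1 and the small MAF genes, up to 3 genes of lowest p with a mean of at least 1 CPM per pathway list, and the 8 genes most like Nqo1. Age at death was not used here.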

Additional observations from a re-analysis of the deposited data

Results flagged for a closer look

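In each group of 8 values of the 10 genes and of the Gclc to Gclm ratio (log2 CPM at each age, log2 change, ratio at each age), the highest and lowest were compared with their nearest neighbour by Dixon's ratio. Chance gives about 1 group in 20, but the groups share values, since each log2 change comes from the levels at both ages. The number flagged is therefore not set against chance. Of 32 groups, 5 held a value far from the others. Mouse 29 gave 2 of them, both in Hmox1: a log2 CPM of 7.62 at 30 months and a log2 change of 1.37. Mouse 43 gave the other 3. Its Gclm was low at 24 months (log2 CPM 5.37) and had a log2 change of 0.30 while the other 7 mice were lower, and the log2 change of its G6pdx was 0.63. No explanation was tested.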

How the results depend on the processing

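For all genes, the count at an adjusted p under 0.05 was 0 by edgeR with DESeq2 size factors, without the filter, with age as a continuous covariate and without each mouse (0 to 0). It was 3 without the replicate block (Nqo1, Kcng4 and Sox15), the paired and unpaired fits using the same genes, and 236 by DESeq2's Wald test. The block changed no other call. Leaving out 1 mouse gave 16 to 30 of the other pathway genes at an unadjusted p under 0.05 in place of 21, a median over the 10 genes of 0.12 (without mouse 29) to 0.22 (without mouse 21), and ratios of Gclc to Gclm of 2.14 to 2.22 at 24 months and 2.50 to 2.66 at 30 months. The 10 genes' estimates kept their sign in 138 of 140 refits, the exceptions being G6pdx without mouse 43 and without mouse 75. Bach1 turned to -0.040 without mouse 29 and reached 0.091 without mouse 21. With the longest transcript as length, mean RPKM at 24 months was 51.9 for Hmox1, 8.83 for Gclm, 42.8 for Txnrd1, 1.53 for Slc7a11, 36.4 for G6pdx, 4.78 for Osgin1 and 35.1 for Nfe2l2, since fewer bases divide the same reads. Of the 8 genes most like Nqo1, 4 were among the top 8 by Spearman's correlation and 0 within either age or over within-mouse changes. By standard error Hmox1 (0.15) was the least precise of the 10 genes and Nqo1 (0.058) the most precise, although Nqo1 had 437 to 1088 reads and Hmox1 1785 to 5706. The causes of these differences were not tested.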
